A study of Homo sapiens with 12 samples.

Results

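The 10 genes described here are noncoding hosts of small nucleolar RNAs (snoRNAs): GAS5, SNHG1, SNHG5, SNHG6, SNHG7, SNHG8, SNHG12, SNHG15, SNHG16 and SNHG17. They were chosen by name, as noncoding host genes of the terminal oligopyrimidine (5′TOP) kind, with earlier results of these data known. All 10 were found among the 27814 named genes of the count table. RNA was sequenced in bulk from BT474, an established breast cancer cell line with amplified HER2 and hormone receptor expression. The 12 libraries form 4 groups of 3 replicates. These are parental cells in DMSO (the solvent), cells labelled BRD8 KO in DMSO, parental cells given 200 nM neratinib for 4 h, and BRD8 KO cells given 200 nM neratinib for 4 h. BRD8 is a bromodomain protein of the TIP60 (NuA4) histone acetyltransferase. Neratinib blocks the kinases of the HER family irreversibly. The labels do not say whether the KO cells are a clone or a pool, where BRD8 was edited, or whether replicates came from separate cultures. A p-value of the fitted model here is set against the spread of replicates within the 4 groups, shared in part between genes. Those replicates may be technical repeats.

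A snoRNA host gene carries snoRNAs in its introns, and splicing releases them as the guides that direct chemical modification of ribosomal RNA. Box C/D snoRNAs (SNORD genes) guide ribose methylation and box H/ACA snoRNAs (SNORA genes) guide pseudouridylation. The spliced exons of these noncoding hosts associate with ribosomes, and several are kept low by nonsense-mediated decay (NMD), the pathway that removes RNAs whose reading frame ends early. Many start with a C followed by a run of pyrimidines, the 5′TOP motif shared with ribosomal protein mRNAs, whose translation depends on mTOR and the RNA-binding protein LARP1. GAS5 takes its name from growth arrest, in which its RNA builds up.

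By the RefSeq annotation of GRCh38.p14, GAS5 holds 10 SNORD genes and 1 SNORA gene, SNHG1 holds 8 SNORD genes, SNHG16 holds 3, SNHG5 holds 2 and SNHG6 holds 1. SNHG17 holds 4 SNORA genes, SNHG7 holds 2, and SNHG8 and SNHG15 hold 1 each. SNHG12 carries both kinds, 3 SNORA genes and 1 SNORD gene. The starts of 9 hosts are shown because the 5′TOP motif is what the rule for choosing them refers to. They are the first 30 bases of the GENCODE 29 transcript with the longest opening pyrimidine run of each gene, 5′ to 3′. Capitals mark the first C and the pyrimidines that follow it without a break.
GAS5: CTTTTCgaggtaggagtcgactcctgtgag
SNHG16: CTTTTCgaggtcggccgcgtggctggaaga
SNHG5: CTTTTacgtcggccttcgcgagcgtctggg
SNHG8: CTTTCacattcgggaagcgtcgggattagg
SNHG1: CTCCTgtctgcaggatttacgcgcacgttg
SNHG12: CCTTTCTCCCCgccgcattcccggtgtcga
SNHG7: CTCTgcgtgcgccggaggctgccgtggcgg
SNHG17: CTCgaaatctgcagacatcttgatttttcc
SNHG15: CCgccatcctgggccccacgtgttgcctga

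A start was counted as 5′TOP where a C was followed by at least 4 C or T. Of the 10 hosts, 7 had such a transcript: the first 6 in the list above and SNHG6. SNHG7, SNHG15 and SNHG17 had none in this annotation. Over the 25076 genes of the table that matched the annotation by symbol, 12.4% had one, and of 79 ribosomal protein genes 66 had one. A gene with more annotated transcripts has more starts that can count. By transcript, 14.9% of the 134 of the hosts started so, against 2.57% of 162125 over all these genes. The starts of GAS5 and SNHG16 were identical over their first 11 bases. SNHG12 had the longest run, 11 bases. The transcripts shown for GAS5, SNHG1, SNHG5, SNHG12 and SNHG17 are annotated as retaining an intron. SNHG1 counts as 5′TOP through 1 of its 25 transcripts, and GAS5 through 6 of 29. An annotated start is not a measured one, since the libraries do not mark where transcripts begin.

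RefSeq promoter windows, 250 bases before to 50 bases after each gene's start in GRCh38.p14, were held for 8 of the 10 hosts. SNHG6 and SNHG15 had no window and were not searched. They were searched on both strands for CACGTG, the E-box bound by MYC and related factors, and for TATAAA, a form of the TATA box. SNHG7 was the only one of the 8 windows with CACGTG, which 7.26% of 35116 windows hold. TATAAA was in the windows of SNHG7 and SNHG1, against 11.5% of all windows. In SNHG1 it lay after the gene's start and on the opposite strand. SNHG7 is therefore not shown to be the only host with the E-box. The 30 bases of the SNHG15 start shown above hold it too, outside the windows counted here. The search was exact, so variants such as TATATAA, in the windows of SNHG12 and SNHG5, did not count. The windows of GAS5 and SNHG1 do not hold their 5′TOP starts. The windows of SNHG7 and SNHG12 are shown because neratinib moved these hosts in opposite directions, with both matches of SNHG7 in capitals. The SNHG7 window, on the minus strand at chr9:136728135-136728434, reads as follows, and the SNHG12 window, on the minus strand at chr1:28581824-28582123, follows it.
SNHG7: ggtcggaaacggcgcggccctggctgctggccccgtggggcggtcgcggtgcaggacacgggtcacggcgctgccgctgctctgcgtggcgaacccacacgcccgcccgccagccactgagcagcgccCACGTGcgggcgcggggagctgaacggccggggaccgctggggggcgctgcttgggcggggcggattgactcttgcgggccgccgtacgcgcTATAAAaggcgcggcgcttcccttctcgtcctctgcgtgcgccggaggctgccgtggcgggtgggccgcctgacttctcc
SNHG12: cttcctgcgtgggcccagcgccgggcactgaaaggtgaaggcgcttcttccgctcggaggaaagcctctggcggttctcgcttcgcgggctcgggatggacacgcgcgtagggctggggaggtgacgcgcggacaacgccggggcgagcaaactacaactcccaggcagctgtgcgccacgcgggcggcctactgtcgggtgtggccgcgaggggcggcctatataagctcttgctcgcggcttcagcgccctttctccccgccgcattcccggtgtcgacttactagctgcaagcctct

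Levels are in CPM, the share of a library's counts that a gene takes, as ppm, with library sizes adjusted by edgeR's TMM factors. Library totals ran from 32471198 to 44726160 counts. The hosts together took 0.0394% of the counts in parental DMSO cells, 0.0253% in KO DMSO cells, 0.0496% in parental neratinib cells and 0.0363% in KO neratinib cells, each a mean of 3. In bulk RNA, fewer cells that express a gene and less RNA per cell cannot be told apart. BRD8 mRNA itself was 64.1 CPM in parental and 67.4 CPM in KO cells in DMSO, and 236 against 156 CPM in neratinib. Without the edited position, these reads do not check the knockout, so the cells are called KO by their label. All 11 luminal and HER2 markers were above 1 CPM in every group. Of 15 markers of other cell types, 10 or 11 were below 1 CPM in each group and none was at 0 in all 12 libraries. Their summed level was 92.5 to 99.4 CPM in parental DMSO, 130 to 135 CPM in KO DMSO, 115 to 119 CPM in parental neratinib and 170 to 174 CPM in KO neratinib cells. Most of it was COL1A1, at 72.7 CPM in parental DMSO and 82.6 in KO DMSO, and VWF, at 11.9 and 32.9. The fibroblast markers COL1A2, DCN and PDGFRB and the endothelial marker PECAM1 were below 1 CPM in every group. The part of the 15 markers in the results below was not tested.

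Among the box C/D hosts, GAS5 was the most abundant. Its 3 parental DMSO libraries read 137.7, 143.6 and 144.5 CPM, and its KO DMSO libraries 94.0, 93.3 and 91.2 CPM. After neratinib the parental libraries read 221.0, 208.1 and 226.9 CPM and the KO libraries 155.2, 153.1 and 168.1 CPM. The 4 groups did not overlap: KO DMSO was lowest, then parental DMSO, KO neratinib and parental neratinib. SNHG1, host of SNORD22 and SNORD25 to SNORD31, had another order. It read 34.5, 35.5 and 36.2 CPM in parental DMSO, 18.3, 16.5 and 19.1 CPM in KO DMSO, 24.8, 24.5 and 24.0 CPM in parental neratinib, and 14.2, 14.0 and 14.1 CPM in KO neratinib. For SNHG1 untreated parental cells were highest and treated KO cells lowest, again with no overlap.

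SNHG16, host of the 3 SNORD1 copies, read 58.6, 56.0 and 58.5 CPM in parental DMSO against 38.4, 38.7 and 38.0 CPM in KO DMSO. In neratinib it read 38.9, 38.1 and 39.4 CPM in parental and 31.7, 30.6 and 30.5 CPM in KO cells. The ranges of untreated KO and treated parental cells overlapped. SNHG5, host of the SNORD50 pair, had a mean of 31.7 ± 1.18 CPM in parental DMSO, 24.0 ± 0.359 in KO DMSO, 33.6 ± 1.10 in parental neratinib and 28.9 ± 1.52 in KO neratinib (SD, n = 3). SNHG6, host of SNORD87, had means of 16.1 ± 1.34, 10.4 ± 0.331, 19.3 ± 1.05 and 14.5 ± 0.611 CPM in the same order (SD, n = 3). For both, as for GAS5, the mean was highest in parental neratinib cells and lowest in KO DMSO cells.

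Among the box H/ACA hosts, SNHG7 read 47.8, 48.6 and 49.1 CPM in parental DMSO and 36.93, 37.78 and 35.97 CPM in KO DMSO. It read 89.2, 86.0 and 90.3 CPM in parental neratinib and 61.0, 65.0 and 66.0 CPM in KO neratinib. SNHG8 followed the same order of groups, with means of 24.4 ± 0.883, 17.9 ± 0.905, 39.5 ± 0.614 and 31.1 ± 1.01 CPM (SD, n = 3). SNHG15, a short-lived noncoding RNA and host of SNORA9, did not. It read 26.6, 29.2 and 30.8 CPM in parental DMSO, while the other 9 libraries lay between 7.09 and 11.9 CPM. SNHG17, host of the SNORA71 copies, read 9.61, 11.01 and 9.64 CPM in parental DMSO and 2.18, 2.84 and 2.30 CPM in KO DMSO. In neratinib it read 3.49, 3.08 and 3.07 CPM in parental and 1.12, 1.65 and 1.23 CPM in KO cells, on 38 to 70 counts a library, the fewest of any host. SNHG12, the mixed host, had means of 10.6 ± 0.715, 5.91 ± 0.248, 6.86 ± 0.104 and 4.98 ± 0.376 CPM in the same order of groups as above (SD, n = 3). In SNHG1, SNHG12, SNHG15, SNHG16 and SNHG17 the parental DMSO libraries stood above all others.

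**Figure D1:**
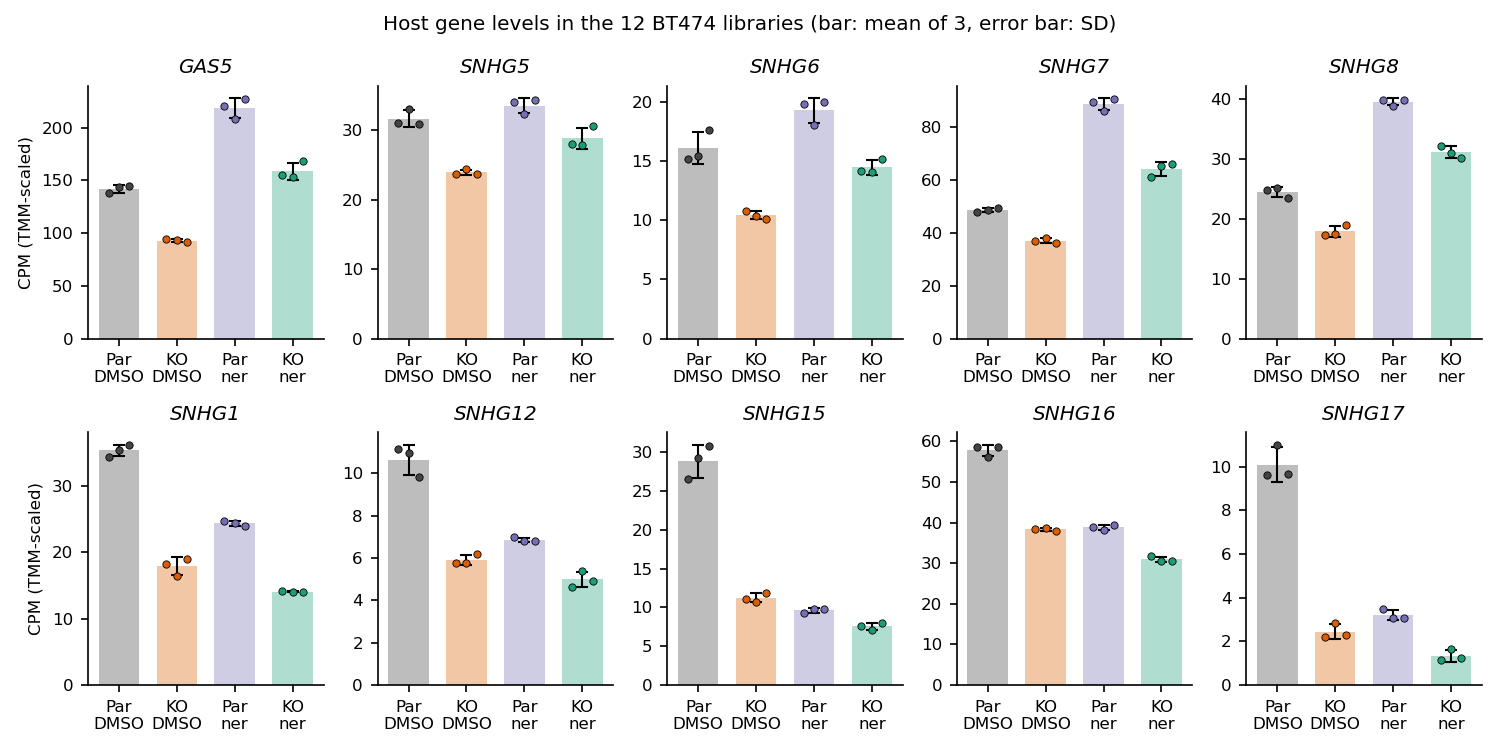
TMM-scaled CPM of the 10 hosts (vertical axes from 0, a scale for each gene) in parental (Par) and KO cells in DMSO or neratinib (ner). Points are libraries, bars the mean of 3 and error bars the SD. In the top row parental neratinib cells are highest (GAS5 at 208.1 to 226.9 CPM), and in the bottom row parental DMSO cells are highest.

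Levels of different genes can be compared only per length. As RPKM, which divides CPM by the length of all annotated exons, parental DMSO cells held GAS5 at 39.1, SNHG8 at 26.5, SNHG6 at 12.9, SNHG5 at 11.3, SNHG7 at 11.2, SNHG16 at 10.8, SNHG1 at 9.43, SNHG15 at 7.91, SNHG12 at 2.49 and SNHG17 at 2.41. SNHG5 and SNHG7 overlapped in their 3 libraries, as did SNHG12 and SNHG17, and the other neighbours in this order did not. Over the median length of the spliced transcripts GAS5 stayed first and SNHG16 became second, so the order below GAS5 depends on the gene model. GAS5 supplied 35.01% of the hosts' counts in parental DMSO, 36% in KO DMSO, 45.3% in parental neratinib and 44.6% in KO neratinib cells.

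The first comparison asked how host RNA differs between KO and parental cells without drug. In DMSO all 10 hosts were lower in KO cells, and for each of them the KO and parental libraries did not overlap. SNHG17 differed most, at 2.44 ± 0.353 against 10.1 ± 0.798 CPM (SD, n = 3), a log2 fold change of -2.03 (SE 0.10). SNHG15 was 11.2 ± 0.572 against 28.9 ± 2.13 CPM, a log2 fold change of -1.37 (SE 0.055), and SNHG1 was at 0.505 of its parental level, a log2 fold change of -0.99 (SE 0.044). SNHG12, at -0.85, SNHG6, at -0.63, GAS5, at -0.61, and SNHG16, at -0.59, followed on the log2 scale. SNHG8, SNHG5 and SNHG7 fell least, by 0.45, 0.40 and 0.39 on the log2 scale.

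The adjusted p in edgeR's quasi-likelihood test, corrected by Benjamini-Hochberg over all 16208 genes tested and called below 0.05, was 3.44e-22 for SNHG17 and 1.66e-11 for SNHG5, the weakest of the 10. The background matters here, since replicates were tight and 71.6% of all genes were called, 35.6% as lower and 36% as higher. Groups did not overlap, with KO lower, for 36.3% of all genes. A fall of at least 1.5-fold was called for 7 of the 10 hosts and for 8.81% of all genes, with SNHG16 just past that size at 0.665 of the parental level. The median log2 fold change was -0.62 over the hosts and 0.00 over all genes.

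In neratinib, KO cells were again lower for all 10 hosts, and again no host's groups overlapped. SNHG17 differed most, with a log2 fold change of -1.25 (SE 0.15), followed by SNHG1 at -0.79 (SE 0.049). SNHG7, at -0.47, GAS5, at -0.46, SNHG12, at -0.46, and SNHG6, at -0.42, formed a middle group. SNHG8, at -0.35, SNHG15, at -0.34, SNHG16, at -0.33, and SNHG5, at -0.22, differed least. By edgeR's quasi-likelihood test the largest adjusted p of the 10 was 6.5e-05, for SNHG15. Of all genes, 71.6% were called, 36.9% of all as lower and 34.7% as higher, and 37.6% had KO below parental with no overlap. A fall of at least 1.5-fold was called for 2 hosts, SNHG1 and SNHG17, and for 9.06% of all genes. The comparisons in DMSO and in neratinib share no library. Both called lower all 10 hosts, and 25.3% of all genes.

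The second question was how 4 h of neratinib moved the hosts. In parental cells, 5 hosts rose and 5 fell. SNHG7 rose from 48.5 ± 0.680 to 88.5 ± 2.25 CPM (SD, n = 3), a log2 fold change of 0.87 (SE 0.031). SNHG8 rose by a log2 fold change of 0.69 (SE 0.039), GAS5 by 0.62 (SE 0.027) and SNHG6 by 0.27 (SE 0.054). SNHG5 differed by 0.09 on the log2 scale (SE 0.039), with overlapping groups.

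On the other side, SNHG17 fell from 10.1 ± 0.798 to 3.21 ± 0.241 CPM (SD, n = 3), a log2 fold change of -1.64 (SE 0.094). SNHG15 fell to 0.333 of its DMSO level, a log2 fold change of -1.59 (SE 0.057). SNHG12 changed by -0.63, SNHG16 by -0.57 and SNHG1 by -0.53 on the log2 scale. By edgeR's quasi-likelihood test the adjusted p was 5.79e-28 for SNHG7, 1.02e-27 for SNHG15 and 0.0432 for SNHG5. The call for SNHG5 was lost in edgeR fits without any of 7 libraries, with an adjusted p of up to 0.271 without parental DMSO replicate 3, where its log2 fold change was 0.05.

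Of all genes, 80.7% were called in parental cells, 41.8% of all as higher and 38.9% as lower, so the numbers of hosts called in each direction are near the background. Treated and untreated libraries did not overlap for 4 of the hosts that rose and for all 5 that fell, against 42.1% and 39.1% of all genes. At least 1.5-fold, 3 hosts were higher (GAS5, SNHG7 and SNHG8), as were 22.5% of all genes, and 3 were lower (SNHG12, SNHG15 and SNHG17), as were 17.3% of all genes. SNHG16, at 0.672 of its DMSO level, lay just outside that size. Of the 7 hosts with a 5′TOP start, 4 were called higher and 3 lower. Of the 3 without one, 1 was called higher and 2 lower.

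In KO cells the same 5 hosts rose and the same 5 fell. SNHG8 rose by 0.80, SNHG7 by 0.79, GAS5 by 0.77, SNHG6 by 0.47 and SNHG5 by 0.27 on the log2 scale. SNHG17 fell by 0.86, SNHG15 by 0.57, SNHG1 by 0.34, SNHG16 by 0.31 and SNHG12 by 0.23. By edgeR's quasi-likelihood test the adjusted p was 7.79e-21 for SNHG8, 3.85e-06 for SNHG17 and 0.013 for SNHG12. The SNHG12 call was lost without KO neratinib replicate 1 (edgeR adjusted p 0.0647). Of all genes 77.2% were called, 38.9% of all as higher and 38.4% as lower. At least 1.5-fold, GAS5, SNHG7 and SNHG8 were higher, as were 18.9% of all genes, and SNHG17 was lower, as were 14.2%. The groups did not overlap for any host, and for 39.2% of all genes upward and 38.8% downward. The responses of the 2 genotypes share no library. The direction was called alike in both for all 10 hosts, and for 65.1% of all genes.

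**Figure D2:**
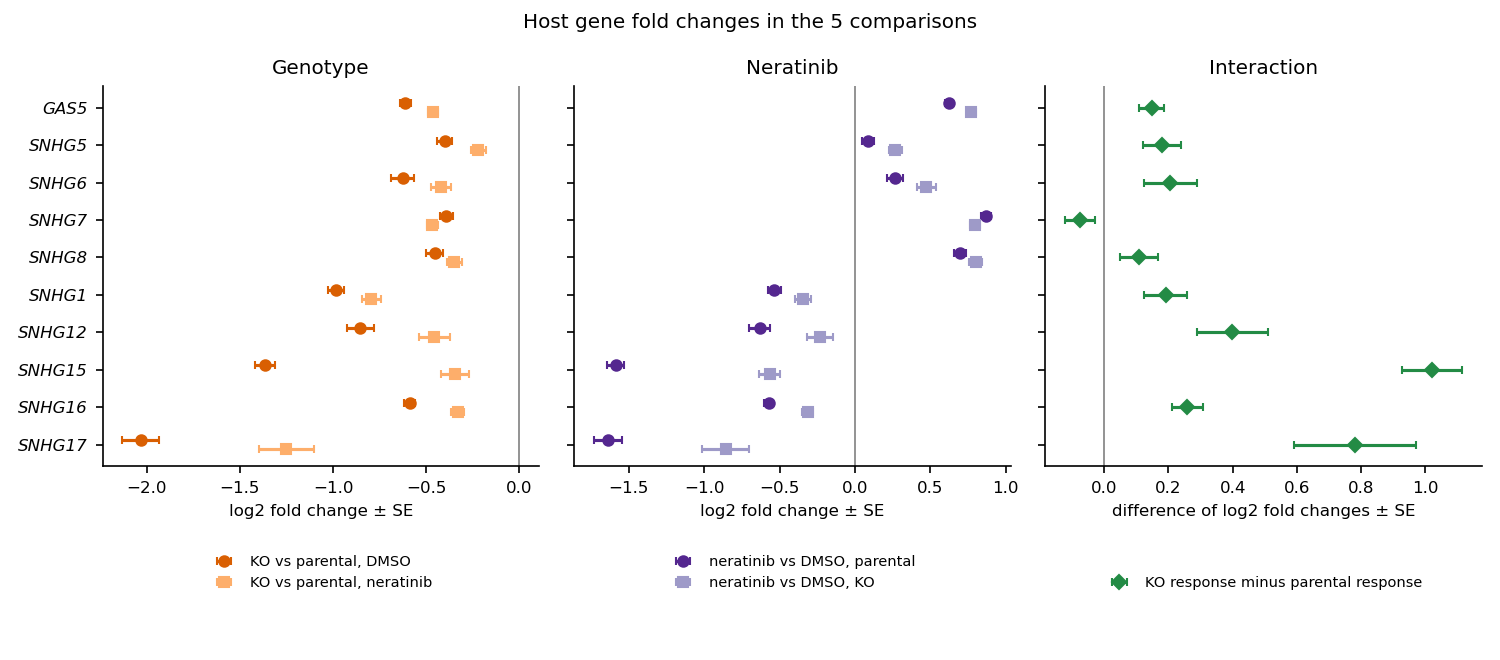
Log2 fold changes of the 10 hosts by genotype (left) and by neratinib (middle), and the difference between the neratinib responses of KO and parental cells (right), each with its SE, from the fit to all 12 libraries. All genotype values lie below 0, the neratinib values split into 5 above and 5 below 0, and 9 of the 10 differences lie above 0.

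The third comparison was the interaction, the log2 response to neratinib in KO cells minus that in parental cells. It was positive and called for 8 hosts and negative and called for none, where 46.1% of all genes were called, 21.5% of all as positive and 24.6% as negative. For hosts that fell, a positive value is a smaller fall in KO cells. SNHG15 had the largest, 1.02 (SE 0.094), with falls of 1.59 in parental and 0.57 in KO cells on the log2 scale. SNHG17 followed with 0.78 (SE 0.19), SNHG12 with 0.40, SNHG16 with 0.26 and SNHG1 with 0.19. For hosts that rose, a positive value is a larger rise in KO cells, and it was 0.21 for SNHG6, 0.18 for SNHG5 and 0.15 for GAS5.

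By edgeR's quasi-likelihood test the adjusted p was 2.05e-12 for SNHG15, 0.000696 for SNHG17 and 0.0398 for SNHG6. SNHG7, at -0.08 with a 95% interval of -0.17 to 0.02, and SNHG8, at 0.11 with an interval of -0.01 to 0.23, did not pass. Only SNHG15 and SNHG17 had an interaction of at least 1.5-fold, a size reached by 4.3% of all genes in this direction. Small interactions depended on single libraries in edgeR fits. SNHG1 dropped to 0.13 (adjusted p 0.128) without KO DMSO replicate 2, SNHG5 lost its call without KO neratinib replicate 3 (adjusted p 0.0593), and SNHG6 lost its call in 5 of the 12 fits that left out 1 library. SNHG8 passed without parental DMSO replicate 3 (adjusted p 0.0374).

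SNHG15 and SNHG17 were low in every group but untreated parental cells. Against the parental DMSO libraries, which both comparisons share, SNHG15 was lower by 1.37 on the log2 scale in KO cells and by 1.59 after neratinib, and SNHG17 by 2.03 and 1.64. MYC, a transcription factor of growth and ribosome production, read 10.0 CPM in parental DMSO, 1.52 in KO DMSO, 8.40 in parental neratinib and 1.22 in KO neratinib cells. Its log2 fold change was -2.72 by genotype in DMSO and -0.25 by neratinib in parental cells. Its part in the hosts' levels was not tested.

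GAS5 and SNHG1, both large box C/D hosts, were set against each other within each library. GAS5 counts per SNHG1 count were 4.01 ± 0.0300 in parental DMSO, 5.19 ± 0.436 in KO DMSO, 8.95 ± 0.470 in parental neratinib and 11.3 ± 0.583 in KO neratinib cells (SD, n = 3). This ratio needs no scaling between libraries. The pair was picked after its values were seen. In each of the 4 comparisons the groups did not overlap and the exact permutation p, two-sided, was 0.1, the smallest that 3 libraries against 3 can give.

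The snoRNA rows inside GAS5 moved apart from the host row. The table has rows for 10 of the snoRNAs in GAS5, and together they held 210 to 535 counts a library, against 2974 to 10129 for GAS5. Mature snoRNAs lack a poly(A) tail, and the TruSeq RNA v2 kit selects polyadenylated RNA, so whether these rows hold snoRNA or intron of the host is not known. How a read on both a snoRNA and its host was counted is not given in the sources used here. Summed, the 10 rows read 13.4 ± 0.863 CPM in parental DMSO and 9.21 ± 0.622 in KO DMSO, a difference in the same direction as the host's. In neratinib they read 6.25 ± 0.627 CPM in parental and 6.40 ± 0.465 in KO cells (SD, n = 3), while GAS5 rose. A fall with neratinib was not particular to the rows inside GAS5. Over 70 tested snoRNA rows outside the 10 hosts, the median log2 fold change with neratinib was -0.63 in parental and -0.31 in KO cells. Rows can pass the expression filter through the groups where they are high, so these medians are only a background.

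Per 100 GAS5 counts there were 9.03, 9.44 and 9.77 snoRNA-row counts in the parental DMSO libraries and 9.03, 10.3 and 10.5 in the KO DMSO libraries. After neratinib there were 3.09, 3.05 and 2.46 in parental and 4.08, 3.91 and 4.11 in KO libraries. All treated libraries lay below all untreated ones, by 1.72 on the log2 scale in parental and 1.30 in KO cells. The exact permutation p was 0.1, two-sided, for neratinib in each genotype and for genotype in neratinib, the smallest possible, and 0.3 for genotype in DMSO. These rows were examined, and the SNORD rows named below chosen, after values were seen.

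Of the 10 GAS5 snoRNA rows, 9 passed the filter, some only through the DMSO groups where they are high, so no count of calls over them is given. SNORD47, the deepest, fell with neratinib in parental cells from 3.22 to 1.52 CPM, a log2 fold change of -1.07 (SE 0.14) by edgeR's quasi-likelihood test. SNORD76 fell from 2.36 to 0.956 CPM, a log2 fold change of -1.28 (SE 0.18), and SNORD80 from 2.30 to 1.08 CPM, a log2 fold change of -1.10 (SE 0.17). SNORD74 did not pass there, at -0.12 (SE 0.26), and in KO cells it was higher after neratinib, by 0.60 (SE 0.25). In KO cells SNORD47 fell by 0.47, SNORD76 by 0.61 and SNORD80 by 0.49 on the log2 scale. No row inside the other hosts held more than 58 counts in any library, and these rows are not described here.

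**Figure D3:**
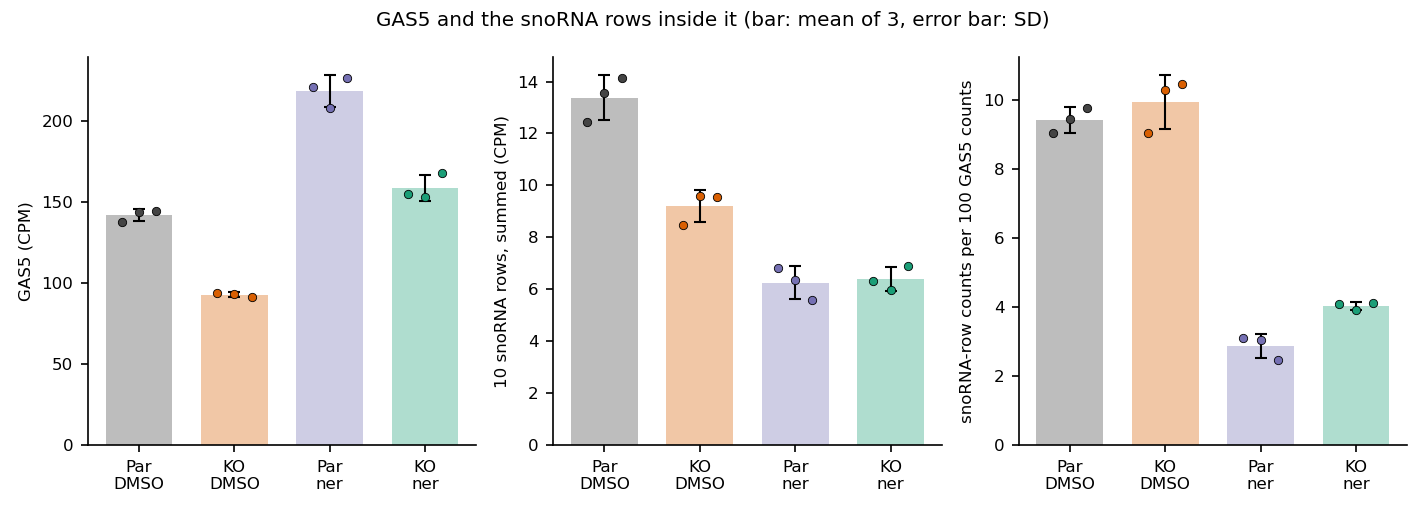
GAS5 level, summed level of the 10 snoRNA rows inside it (both TMM-scaled CPM), and snoRNA-row counts per 100 GAS5 counts, by group. Points are libraries, bars the mean of 3 and error bars the SD. Neratinib libraries are higher for GAS5 and lower for the snoRNA rows, so the ratio falls from 9.41 to 2.87 in parental cells and from 9.93 to 4.03 in KO cells.

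For each host the 10 nearest tested protein-coding genes, 5 on each side, were set beside it. Around SNHG17, on chromosome 20, all 10 neighbours were lower in KO cells in DMSO, with a median log2 fold change of -0.999 over a span of 3.17 Mb. RALGAPB and RPRD1B, its nearest neighbours on either side, were at -1.11 and -1.07, and DHX35 was at -1.31 (these 3 were named after their values were seen). In neratinib 8 of the 10 were lower, with a median of -1.03. SNHG17 itself lay below each of them in DMSO, at -2.03, but within their range in neratinib, at -1.25 where the lowest neighbour was at -2.11. Around SNHG1, on chromosome 11, 8 of 10 neighbours were lower in DMSO, with a median of -0.24. In neratinib 9 of 10 were, with a median of -0.37. Among all genes 35.6% were lower in DMSO and 36.9% in neratinib. The part of these regional differences in the values of SNHG17 and SNHG1 was not tested.

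The other hosts had neighbours with medians near or above 0 in DMSO, apart from SNHG16, whose neighbours had a median of -0.24 with 4 called lower and 3 higher. The neighbours of GAS5 had a median of 0.27, those of SNHG7 0.24, those of SNHG8 0.66 and those of SNHG15 0.03. For neratinib in parental cells, SNHG7 rose while 8 of its 10 neighbours fell, with a median of -0.52, where 38.9% of all genes fell. The neighbours of GAS5 had a median of 0.48 in that comparison, in the direction of GAS5.

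**Figure D4:**
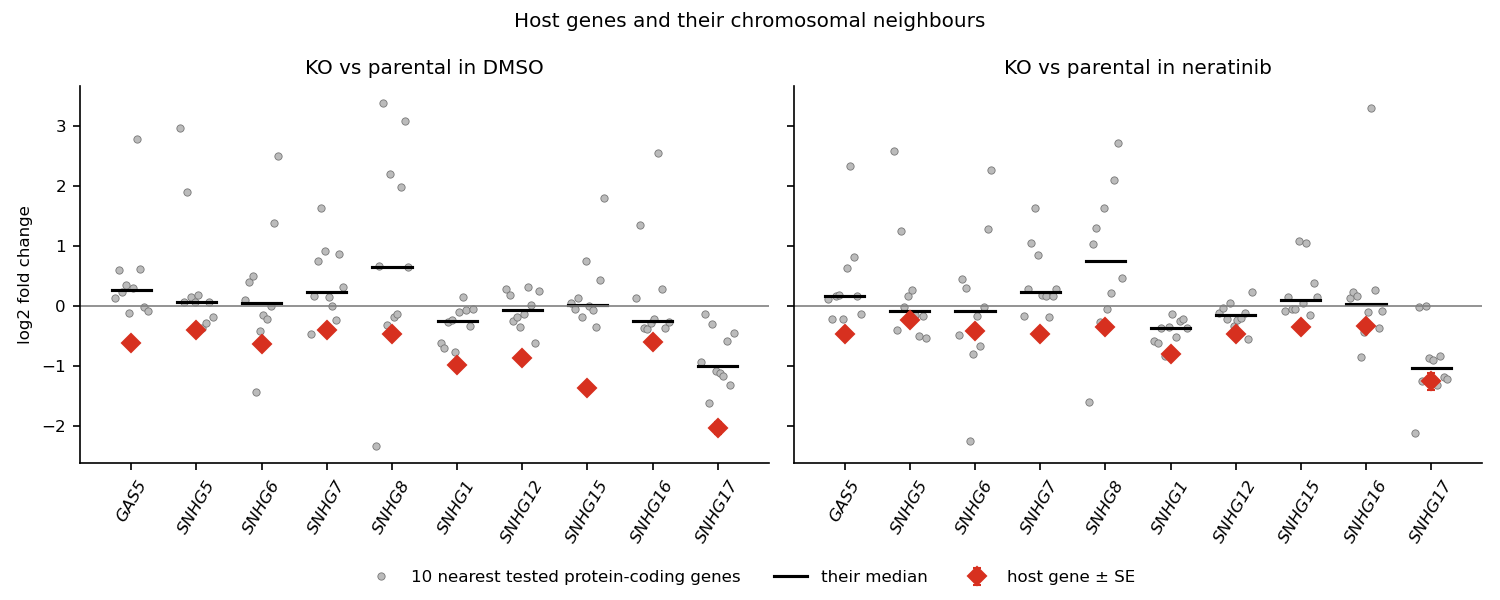
Log2 fold change, KO against parental, of each host (diamond, with SE) and of its 10 nearest tested protein-coding genes (points in order along the chromosome, with their median as a line), in DMSO and in neratinib. All 10 hosts lie below the median of their neighbours in both panels, and the neighbours of SNHG17 have the lowest medians, -0.999 and -1.03.

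Some hosts overlap genes on the opposite strand, and without strand information their reads cannot be told apart. In GENCODE 29, SNHG6 shares 29.3% of its exonic bases with MCMDC2. SNHG7, at chr9:136721366-136728184, shares 25.2% with DIPK1B, and SNHG16, at chr17:76557766-76565348, shares 30.6% with a gene that has no row in the table. MCMDC2 had 18 to 112 counts a library and DIPK1B 251 to 520. DIPK1B was higher in KO cells in DMSO, by 0.52 (SE 0.074), where SNHG7 was lower. MCMDC2 rose with neratinib in parental cells by 1.18 (SE 0.16), in the direction of SNHG6. The other hosts shared at most 1.16% of their exonic bases with an opposite gene. GAS5, at chr1:173863900-173868882, shared no 50-base window with a transcript of another gene in GENCODE 29. That search does not tell how reads on the snoRNAs inside GAS5, placed there by RefSeq, were counted.

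Other noncoding snoRNA hosts were compared from a list of 22 genes, of which 16 were tested. In KO cells in DMSO 11 of the 16 were lower and 2 higher, against 35.6% and 36% of all genes. The median log2 fold change was -0.58. SNHG3 was at -0.99 (SE 0.075) and DANCR at -0.81 (SE 0.045), and SNHG11, on chromosome 20 like SNHG17, was at -1.43 (SE 0.15). In neratinib KO cells were lower for 9 and higher for none, against 36.9% and 34.7% of all genes. Neratinib in parental cells raised 8 and lowered 5, shares near the 41.8% and 38.9% of all genes. EPB41L4A-AS1 rose by 1.47 (SE 0.070) and ZFAS1 by 0.39 (SE 0.023), while SNHG3 fell by 0.65.

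Coding genes that host snoRNAs were split by whether they encode ribosomal proteins. By genotype in DMSO 35.6% of all genes were lower and 36% higher. With neratinib in parental cells 41.8% of all genes rose and 38.9% fell. Of 23 ribosomal protein hosts, 22 were lower in KO cells in DMSO, with a median of -0.47, and 21 rose with neratinib in parental cells while 0 fell, with a median of 0.16. Of 18 tested coding hosts outside that list, 13 were lower in KO cells in DMSO, with a median of -0.22. With neratinib in parental cells 4 of these rose and 13 fell, with a median of -0.44. Among those that fell were HSPA8, a heat shock chaperone, at -1.39, and NOP56, a core box C/D snoRNP protein, at -0.94. EEF2, the translocation factor of the ribosome, rose by 0.53.

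Of the 79 ribosomal protein genes, 77 were lower in KO cells in DMSO and 75 in neratinib, and none was higher. The shares of all genes that were lower were 35.6% and 36.9%. RPS21 and RPS25 both stood at -0.97 in DMSO. With neratinib 67 rose and 5 fell in parental cells, with a median of 0.14, and 62 rose and 4 fell in KO cells. Among all genes, 41.8% rose and 38.9% fell in parental cells, and 38.9% rose and 38.4% fell in KO cells. RPL13A rose by 0.43 and RPS26 fell by 0.69 in parental cells. The RPL and RPS rows are uncertain where processed copies share reads. Of 22 other 5′TOP mRNAs, 18 were lower in KO cells in DMSO and 16 rose with neratinib in parental cells, among them NOP53, a ribosome assembly factor, by 0.96. A difference between these lists and the hosts was not tested.

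Of 19 proteins of the snoRNA particle, 10 were lower and 2 higher in KO cells in DMSO, with FBL, the box C/D methyltransferase, at -0.54. With neratinib in parental cells 12 fell and 2 rose, with NOP58 at -0.65. Among 20 NMD factors, 13 were lower in KO cells in DMSO, including UPF2 at -0.39, and 13 fell with neratinib in parental cells, where UPF2 itself rose by 0.33. Of 12 mRNAs known as NMD targets, 6 were higher and 5 lower in KO cells in DMSO. With neratinib in parental cells 9 of them fell, SRSF2 by 1.37 and SRSF3 by 1.00, and 3 rose, ATF3 by 2.94. Beside these counts, 35.6% of all genes were lower and 36% higher by genotype in DMSO. For neratinib in parental cells 38.9% of all genes fell and 41.8% rose. A count near these shares is not a result about its list.

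Of 20 genes of mTOR signalling and LARP1, 10 were higher and 5 lower in KO cells in DMSO. The shares of all genes were 36% and 35.6%. With neratinib in parental cells 7 rose and 12 fell, against 41.8% and 38.9% of all genes. LARP1, the 5′TOP binding protein, read 331 CPM in parental DMSO, 226 in KO DMSO, 106 in parental neratinib and 105 in KO neratinib cells. Its log2 fold change was -0.55 by genotype in DMSO and -1.64 by neratinib in parental cells. SESN3, an inhibitor of mTOR signalling, rose by 2.62 and EIF4E, the cap-binding protein, fell by 1.27 with neratinib in parental cells. These are mRNA levels, and mTOR activity was not measured.

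**Figure D5:**
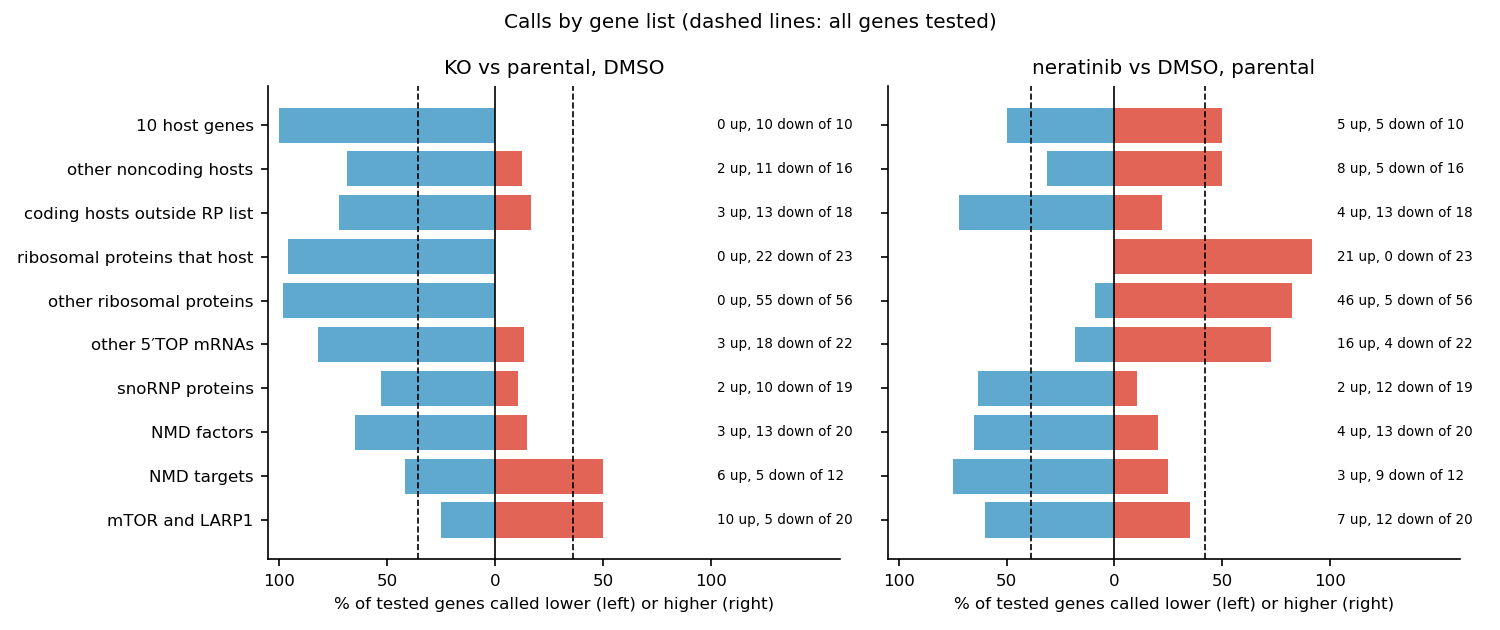
Percent of the tested genes of each list called lower (left, blue) or higher (right, red) in KO against parental cells in DMSO and with neratinib against DMSO in parental cells, by edgeR's quasi-likelihood test. Dashed lines are the shares of all genes tested. All 10 hosts are lower by genotype, and 5 rise and 5 fall with neratinib, where 67 of the 79 ribosomal protein genes rise.

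Across the 12 libraries, the log2 levels of GAS5 and SNHG7 had a Pearson correlation of 0.974, those of GAS5 and SNHG8 0.973 and those of SNHG12 and SNHG17 0.987. The lowest of the 45 pairs was SNHG7 with SNHG15, at -0.395. The libraries fall into 4 groups, so these values follow the group means. Patterns over the 12 libraries were also searched among 9628 genes with a mean of at least 10 CPM. Genes of any list used here, the hosts and ribosomal protein genes among them, were left out of that search. The pattern most like that of GAS5 was that of TMCO6, with a correlation of 0.996. HAUS4, GMPR2, ANKRD27 and DNHD1 followed, at 0.994 to 0.992. Among the same 9628 genes, the pattern most like the mean of the 10 hosts was that of RAI2, at 0.995. INPP4B, FAM168A, NRBP2 and POMGNT1 followed.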

How the data were processed

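The authors deposited raw gene counts for the 12 libraries as 1 table. Libraries were made with the TruSeq RNA v2 kit and read as single 50-base reads, per the labels' protocols. The submitters' processing notes name FastQC 0.11.7, STAR 2.7.9, edgeR 3.40.2 and GRCh38 (hg38). The counting program, annotation and strand setting are not given in the sources used here.

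The 581 lines without a symbol (0.0877% to 0.124% of a library) were left out. Counts were filtered with filterByExpr, TMM-scaled and fitted with 1 mean per group by edgeR 4.0.16 (R 4.3.3, glmQLFit and glmQLFTest), with 8 residual degrees of freedom and a common biological coefficient of variation of 1.86%. All 10 hosts passed the filter. SE is the log2 fold change over the root of the F statistic. The scripts were tested on simulated counts. Alternatives were other scalings and filters, DESeq2 1.42.0, a fixed coefficient of variation of 0.1, the replicate number as a block, only the groups compared, and each library left out.

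Replicates had Spearman correlations of 0.980 to 0.983 and differed by more than sampling noise. The members and all lists were chosen with earlier results of these data known. Genes of other lists were named by rule: at most 2 per list, direction and comparison, those called with the largest change and a mean of at least 5 CPM. Other noncoding hosts could be named freely, and further genes as said in the text.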

Additional observations from a re-analysis of the deposited data

Results flagged for a closer look

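The response of the hosts to neratinib differed between KO and parental cells, by the interaction term of edgeR's quasi-likelihood test, for 8 of the 10 hosts, where 46.1% of all genes were called and 21.5% were called in the positive direction. With a fixed coefficient of variation of 0.1, 2 of the hosts passed, SNHG15 and SNHG17. The difference (KO response minus parental response, log2) was 1.02 for SNHG15, 0.78 for SNHG17, 0.40 for SNHG12, 0.26 for SNHG16, 0.21 for SNHG6, 0.19 for SNHG1, 0.18 for SNHG5 and 0.15 for GAS5. With each group's own values, the smaller fall of SNHG15 in KO cells began from 11.2 CPM and that in parental cells from 28.9 CPM, and both ended between 7.09 and 9.82 CPM. No cause of these differences was tested.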

How the results depend on the processing

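Over 1035 recomputed fold changes of the 10 hosts, 999 kept direction and side of the threshold, 35 lost the call, 1 gained it and 0 reversed. With a fixed coefficient of variation of 0.1, 2 hosts (SNHG15 and SNHG17) passed the interaction, and over all genes 6974 were called in KO against parental cells in DMSO, 6950 in neratinib and 1436 in the interaction, against 11609, 11605 and 7468. That setting also ended the calls of SNHG5 by genotype in neratinib (adjusted p 0.145), of SNHG5 (0.567) and SNHG6 (0.0604) for neratinib in parental cells, and of SNHG5 (0.0519) and SNHG12 (0.142) in KO cells. SNHG5 in parental cells also lost its call with DESeq2 (adjusted p 0.348), RLE factors (0.136) and no filter (0.243). SNHG12 in KO cells lost it with library totals (0.0554), upper quartiles (0.0546) and a mean of at least 5 CPM (0.0625), and the SNHG6 interaction with library totals (0.0781) and DESeq2 (0.0656). With 1 library left out, hosts called ranged from 6 to 8 in the interaction and from 9 to 10 for neratinib in each genotype, and were 10 for genotype. The count of hosts at least 1.5-fold different in KO cells in DMSO ranged from 5 to 7 over all settings. The 5 came from the filter of a mean of at least 5 CPM, under which SNHG17, with a mean of 4.27 CPM, was not tested.

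Same-numbered replicates did not deviate together (18 pairs, correlations of -0.152 to 0.0998). With the replicate number as a block, all 10 hosts were called for genotype in DMSO, all 10 in neratinib, 9 for neratinib in parental cells, 10 in KO cells and 8 in the interaction. The call lost was SNHG5 (adjusted p 0.0502). The depth limits SNHG17 most, at 38 to 70 counts in KO neratinib libraries.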
